A study of Bubalus bubalis with 6 samples.

Results

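The genes described here code for the parts of cyclic AMP, calcium and G-protein signalling, read as DNA methylation in the sperm of water buffalo bulls. They were chosen by name: every gene whose name on the array begins like that of an adenylyl cyclase, phosphodiesterase, protein kinase A or C, A-kinase anchoring protein, G-protein subunit, regulator of G-protein signalling, phospholipase C, IP3 receptor, ryanodine receptor, calmodulin or calmodulin-dependent kinase. That gave 82 of the 7932 gene names on the array and 220 of its 19762 named probes. Of the 82 genes, 55 had at least 1 measured probe (101 probes), as defined below. The names fell into 18 families. Some members match by spelling but are not themselves cyclic nucleotide phosphodiesterases, calmodulin-dependent kinases or protein kinases C: PRKCSH (the beta subunit of glucosidase II), PDE4DIP (myomegalin, a protein of the centrosome and Golgi), PDE12 (a mitochondrial RNA-degrading enzyme), CAMK2N2 (an inhibitor of calmodulin-dependent kinase II), CAMKMT (a methyltransferase that acts on calmodulin) and PRKCDBP (a caveolar coat protein). RefSeq's buffalo annotation (NDDB_SH_1), used for names only, held 77 of the 82.

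Frozen semen of 3 subfertile bulls (SF1, SF4 and SF5) and 3 high-fertile bulls (HF2, HF3 and HF5) was compared, with 1 array per bull on 2 slides. SF5 and HF5 shared 1 slide, and SF1, SF4, HF2 and HF3 shared the other. Sheared sperm DNA bound by an antibody against 5-methylcytosine (immunoprecipitated or IP DNA, Cy5) shared each array with input DNA of that bull (Cy3), on a design of CpG islands and promoters. The labels used here do not say how fertility was scored, and each bull gave 1 sample. A level below is log2(IP/input) relative to the median probe of the same array. A positive level means more antibody-bound DNA than at the median probe, and levels do not give the percentage of cytosines that carry the mark.

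Sperm carry little cytoplasm, and their behaviour is steered by second messengers. Cyclic AMP made by adenylyl cyclases activates protein kinase A, held in the tail by anchoring proteins, and drives motility and the maturation called capacitation, while phosphodiesterases break cyclic AMP down. G proteins act on the cyclases and on phospholipase C, whose product IP3 opens calcium stores through IP3 receptors, and the calcium acts through calmodulin-dependent kinases and protein kinase C. DNA methylation in sperm is laid down while the germ cell forms and does not measure how much of a protein the sperm holds.

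Each probe is 60 bases long and is printed as the array files give it, in lower case with each CpG, the site where the antibody's target mostly lies, in capitals. No source used here names the genome build of the coordinates, nor whether a probe lies in a promoter, exon, intron or UTR. Letters of overlapping probes matched in increasing coordinate in 29 of 29 pairs. GNAL, the alpha subunit that couples olfactory receptors to adenylyl cyclase, had the lowest level of the genes with more than 2 measured probes, and its 5 most CpG-rich probes are shown for that reason.
GNAL chr24:44305943-44306002: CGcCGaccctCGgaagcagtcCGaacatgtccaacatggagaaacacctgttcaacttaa
GNAL chr24:44305963-44306022: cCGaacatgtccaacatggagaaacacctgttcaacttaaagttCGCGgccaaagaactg
GNAL chr24:44306103-44306162: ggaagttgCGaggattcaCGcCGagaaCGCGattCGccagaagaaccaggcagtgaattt
GNAL chr24:44306243-44306302: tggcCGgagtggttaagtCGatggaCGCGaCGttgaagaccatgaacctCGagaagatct
GNAL chr24:44306263-44306322: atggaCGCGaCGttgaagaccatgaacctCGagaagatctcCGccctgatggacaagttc

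The other genes whose level over 6 bulls passed the test on the low side are shown next, with both measured probes of PRKCA.
PDE5A chr6:6158722-6158781: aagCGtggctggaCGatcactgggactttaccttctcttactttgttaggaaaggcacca
CAMK2N2 chr1:84791891-84791950: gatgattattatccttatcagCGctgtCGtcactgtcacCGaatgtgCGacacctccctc
PRKCA chr19:64374909-64374968: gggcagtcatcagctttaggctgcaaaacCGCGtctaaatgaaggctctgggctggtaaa
PRKCA chr19:64638221-64638280: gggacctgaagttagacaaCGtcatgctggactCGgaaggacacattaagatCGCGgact

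Probes of 3 genes that differed strongly between scan sessions follow. PDE2A was higher on the later dates and holds 5 CpGs, while GNB4 and PDE1A were lower and hold 1 and 0.
PDE2A chr15:51649243-51649302: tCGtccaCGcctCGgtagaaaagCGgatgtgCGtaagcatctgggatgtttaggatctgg
GNB4 chr1:90103560-90103619: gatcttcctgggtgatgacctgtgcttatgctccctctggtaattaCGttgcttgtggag
PDE1A chr2:14573819-14573878: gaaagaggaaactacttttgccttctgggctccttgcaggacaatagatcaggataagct

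ADCYAP1 codes for PACAP, a peptide hormone that raises cyclic AMP through its receptor. Its lowest and its highest probe are shown because they hold the same number of CpGs (4), lie 2690 bp apart and differed in every bull.
ADCYAP1 chr24:36937358-36937417: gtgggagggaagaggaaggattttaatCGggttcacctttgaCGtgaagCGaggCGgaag
ADCYAP1 chr24:36940048-36940107: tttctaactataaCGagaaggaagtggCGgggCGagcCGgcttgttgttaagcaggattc

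The arrays differed by scan session. Scan dates put SF4, HF2 and HF3 in a first session and SF1, SF5 and HF5 on later dates, so each session held both groups. Across the 55 genes, levels correlated at 0.51 to 0.80 between bulls of the same session and at -0.31 to 0.28 across sessions (Pearson's r, a description across genes that share arrays). IP DNA was well above background at 31.8% to 46.8% of the 220 member probes in the first session, and at 54.5% to 67.3% on the later dates. By group, the shares were 36.4% to 67.3% in subfertile bulls and 31.8% to 54.5% in high-fertile bulls. The median input signal of an array was 514 to 760 in the first session and 1115 to 1492 on the later dates. How far signal strength bears on the session differences was not tested. A probe counted as measured if its input signal stood well above background on each of the 6 arrays with no uniformity flag. That was met by 45.9% of member probes, against 38.7% of all named probes and 62.4% of all probes. The IP signal was not part of this filter. It also stood well above background on all 6 arrays at 55 of the 101 measured member probes, and at 59797 of all 110686. Measured probes were richer in CpGs: 13 of the 79 member probes with no CpG were measured (26.7% of all such probes), and 17 of the 19 with 5 or more (75.8% of all such probes). Spots that repeat the sequence of a measured member probe gave 22 pairs. Their median absolute difference within an array was 0.20 to 0.51 log2 in the first session and 0.14 to 0.18 on the later dates. By group, it was 0.14 to 0.36 in subfertile bulls and 0.17 to 0.51 in high-fertile bulls. The 7 measured imprinted genes did not separate by the parental mark they are known for, which in sperm is low at maternal and high at paternal marks. Their probes were taken by gene name (1 measured for H19, 2 for MEG3). Whether any lies in a marked region is not known, so these levels cannot check the assay. As means over 6 bulls, maternally marked SGCE was at -0.74, PEG10 at 0.02 and IGF2R at 0.28, and paternally marked RTL1 was at 0.08, H19 at 0.05, MEG3 at -0.09 and RASGRF1 at -0.15.

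**Figure D1:**
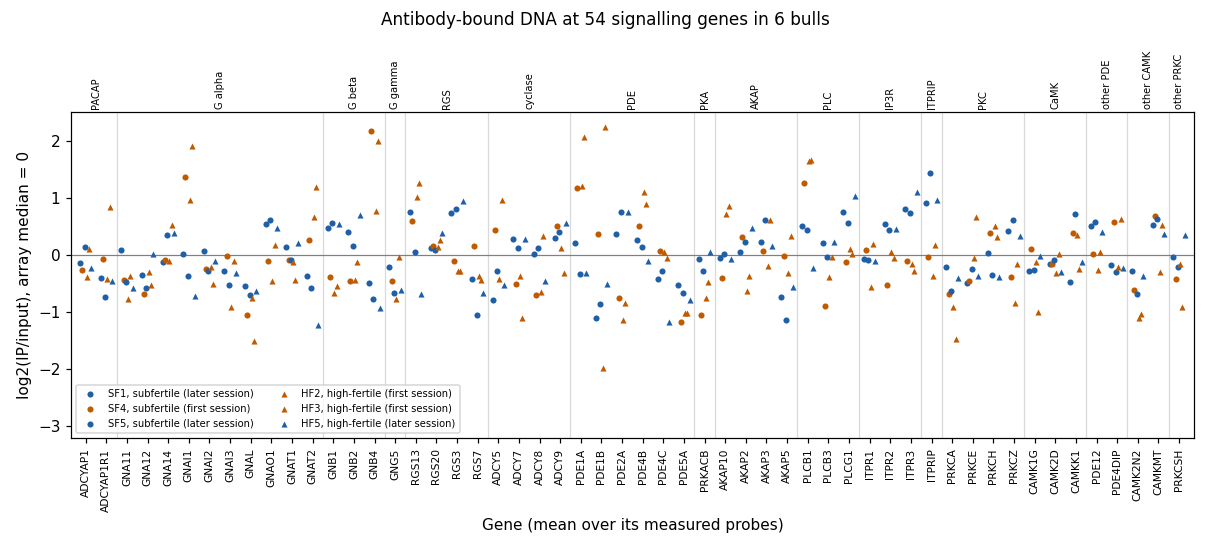
Level of 54 of the measured genes in each bull, log2(IP/input) with the array median at 0, by family; circles are subfertile and triangles high-fertile bulls, orange the first scan session and blue the later dates. In GNAI1, GNB4, PDE1A and PDE2A the orange and blue points part, while circles and triangles mix.

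The study set subfertile against high-fertile bulls. At the signalling genes, limma called 0 of 55 (0% of all 4286 measured genes), and 0 of 55 fell below 0.05 without adjustment (0.793% of all genes). No member had its 3 subfertile bulls all above or all below its 3 high-fertile bulls, against 3.87% of all genes. The median difference was 0.06 log2, with 33 of 55 genes higher in subfertile bulls (52.2% of all genes), and 27 of 55 when arrays were centred on measured probes instead. In 51 of 55 genes the difference was within 0.5 log2, and the others, named after their values were seen, were AKAP10, PDE1A, PDE2A and ITPRIP. The 95% interval of the difference lay within 1 log2 of 0 for 23 of the 55 genes, and for the rest it reached past 1 log2. For single probes it lay within 1 log2 of 0 in 36 of 101.

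**Figure D2:**
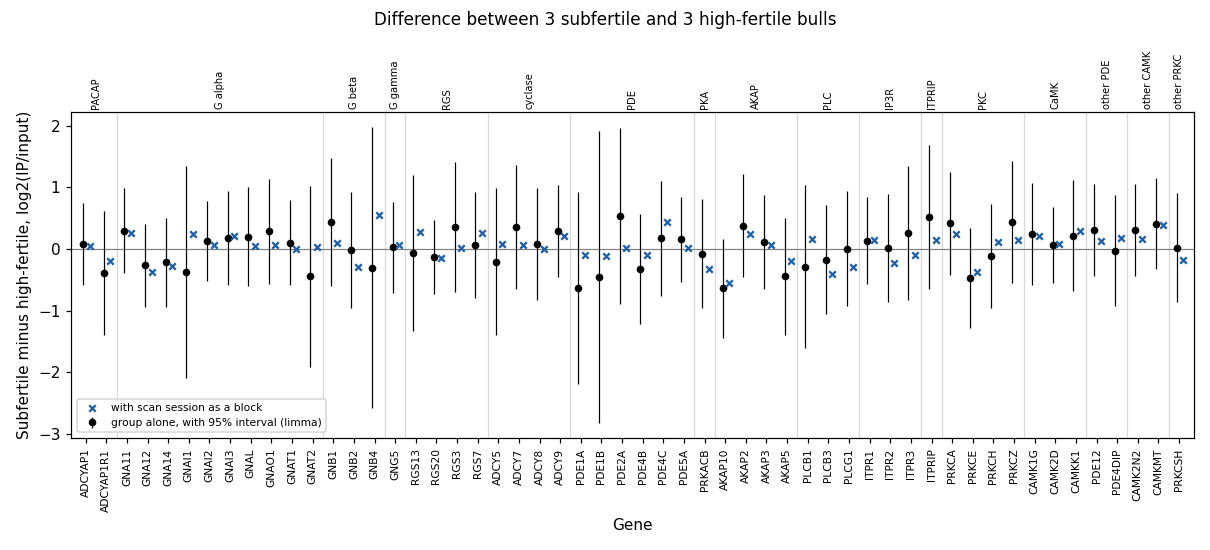
Subfertile minus high-fertile difference of the same 54 genes in log2(IP/input), with its 95% interval from limma (black) and the estimate with scan session as a second term (blue crosses). Every black interval spans 0, and the crosses of PDE1A, PDE2A and GNAT2 lie nearer to 0 than the black points.

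At the top of the pathway, ADCYAP1 (4 probes) had levels of -0.14, -0.26 and 0.13 in SF1, SF4 and SF5, against -0.38, 0.10 and -0.23 in HF2, HF3 and HF5. The groups overlapped, with a difference of 0.08 (SE 0.28). Its receptor gene ADCYAP1R1 was at -0.40, -0.08 and -0.73 in the subfertile bulls, against -0.43, 0.85 and -0.46 in the high-fertile bulls. HF3 alone was high there, and the other 5 bulls lay below 0.

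The G-protein alpha subunits gave 10 measured genes, 6 of them with a positive difference, from -0.45 to 0.30 in all. GNAI2, a subunit that inhibits adenylyl cyclase, had levels of 0.07, -0.24 and -0.28 in SF1, SF4 and SF5, against -0.21, -0.51 and -0.11 in HF2, HF3 and HF5 (3 probes). Its groups overlapped, with a difference of 0.13 (SE 0.28). GNA11, a subunit that activates phospholipase C, was at 0.08, -0.44 and -0.47 in the subfertile bulls, against -0.77, -0.36 and -0.59 in the high-fertile bulls (1 probe). SF1 was the only bull above 0 at GNA11.

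GNAL rested on 7 measured probes. Its level was -0.54, -1.04 and -0.70 in SF1, SF4 and SF5, against -0.75, -1.50 and -0.63 in HF2, HF3 and HF5. All 6 bulls were below the array median, and the groups overlapped with a difference of 0.20 (SE 0.34). The GNAL probe at chr24:44306103-44306162 was the 1 of 101 member probes whose groups did not overlap, against 5.78% of all 110686 measured probes. It read -0.93, -1.09 and -1.03 in the subfertile bulls, against -1.37, -1.85 and -1.26 in the high-fertile bulls. The difference of 0.47 (SE 0.30) did not pass limma's test (unadjusted p = 0.147).

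Regulators of G-protein signalling speed the return of alpha subunits to rest. RGS20 (3 probes) was at 0.12, 0.16 and 0.09 in SF1, SF4 and SF5, against 0.14, 0.26 and 0.38 in HF2, HF3 and HF5. It was the 1 member above 0 in all 6 bulls (3.22% of all genes were), and its difference was -0.14 (SE 0.26).

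Among adenylyl cyclases, 3 of 4 measured genes had a positive difference. ADCY9 (4 probes) was at 0.30, 0.51 and 0.41 in SF1, SF4 and SF5, against 0.12, -0.32 and 0.56 in HF2, HF3 and HF5. HF3 alone lay below 0, and the difference was 0.29 (SE 0.32). One of the 2 measured ADCY7 probes read 0.62, 0.20 and 0.49 in the subfertile bulls, against -0.76, -1.21 and 0.37 in the high-fertile bulls.

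That ADCY7 probe was 1 of 3 member probes with an unadjusted limma p below 0.05 for fertility (1.84% of all probes), and 0 of 101 passed the adjusted test (0% of all probes). Another, in PRKCA, read 0.26, -0.07 and 0.11 in SF1, SF4 and SF5, against -1.14, -1.16 and 0.03 in HF2, HF3 and HF5. PRKCE gave the other, at -0.89, -1.32 and -0.26 in the subfertile bulls, against 0.42, 2.07 and -0.52 in the high-fertile bulls. In all 3 probes HF5, the high-fertile bull of the later dates, lay within the subfertile range and HF2 and HF3 outside it. SF4, of the same first session as HF2 and HF3, lay on the side of the other subfertile bulls in each. With scan session as a second term, 0 of the 101 had an unadjusted p below 0.05 in limma (3.48% of all probes).

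Of the 6 measured phosphodiesterase genes, 3 had a positive difference. PDE1A, activated by calcium and calmodulin, was at 0.22, 1.17 and -0.34 in SF1, SF4 and SF5, against 1.21, 2.07 and -0.32 in HF2, HF3 and HF5 (2 probes). PDE2A, stimulated by cyclic GMP, was at 0.37, -0.75 and 0.76 in the subfertile bulls, against -1.14, -0.85 and 0.76 in the high-fertile bulls (1 probe). The differences were -0.64 (SE 0.66) for PDE1A and 0.53 (SE 0.61) for PDE2A, and with scan session as a second term they were -0.10 and 0.02. Both genes parted by session, as described further on.

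Anchoring proteins hold protein kinase A near its targets. AKAP3, a main part of the fibrous sheath of the sperm tail, was at 0.22, 0.07 and 0.61 in SF1, SF4 and SF5, against -0.19, 0.60 and 0.15 in HF2, HF3 and HF5 (2 probes). The groups overlapped, with a difference of 0.11 (SE 0.33). AKAP10 read -0.05, -0.40 and 0.03 in the subfertile bulls, against 0.72, 0.85 and -0.08 in the high-fertile bulls (1 probe with no CpG). Its difference of -0.64 (SE 0.34) had the smallest unadjusted p of the 55 genes in limma, 0.104, and was 0.07 on the later dates alone. PRKACB, a catalytic subunit and the one protein kinase A gene by this rule, was at -0.07, -1.04 and -0.28 in the subfertile bulls, against -0.74, -0.47 and 0.06 in the high-fertile bulls.

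On the calcium side, ITPR1 (5 probes) was at -0.07, 0.08 and -0.09 in SF1, SF4 and SF5, against -0.55, 0.20 and -0.11 in HF2, HF3 and HF5. ITPR3 was at 0.81, -0.10 and 0.73 in the subfertile bulls, against -0.15, -0.29 and 1.10 in the high-fertile bulls (2 probes). The groups overlapped at both IP3 receptors, with differences of 0.13 (SE 0.30) and 0.26 (SE 0.47). Phospholipase C had 3 measured genes, with differences from -0.29 to 0.01.

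Protein kinase C had 5 measured genes, 2 of them with a positive difference. PRKCE (3 probes) was at -0.49, -0.46 and -0.24 in SF1, SF4 and SF5, against -0.06, 0.67 and -0.38 in HF2, HF3 and HF5. The PRKCE probe given above with an unadjusted limma p below 0.05 is 1 of these 3 and lies 538739 bp from the first. At the first, levels were -0.47, 0.24 and -0.85 in SF1, SF4 and SF5, against -0.82, -0.10 and -0.69 in HF2, HF3 and HF5. At the next, 115 bp on, they were -0.11, -0.32 and 0.37, against 0.23, 0.03 and 0.08. The groups overlapped at both. PRKCE's difference of -0.48 (SE 0.34) was the farthest from 0 of the 8 genes with 3 or more measured probes. It was 0.01 on the later dates alone. A separate fit over genes with at least 3 measured probes called 0 of these 8 in limma (0% of all 737), with 0 of 8 at an unadjusted p below 0.05 (0.814% of all 737).

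The 3 measured calmodulin-dependent kinases had differences of 0.06 to 0.24. PDE4DIP, with 8 measured probes, was at -0.18, 0.58 and -0.30 in SF1, SF4 and SF5, against -0.21, 0.62 and -0.22 in HF2, HF3 and HF5. SF4 and HF3, both of the first session, were its only bulls above 0.

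The difference had the same sign in both sessions for 22 of the 55 genes, against 47.9% of all genes. With scan session as a second term, limma called 0 of 55 (0% of all genes), 0 fell below 0.05 unadjusted (2.66% of all genes) and 36 were positive (55.1% of all genes). On the later dates alone, where HF5 is the lone high-fertile bull and is assumed to vary like the others, limma called 0 of 55 members and 2.22% of all genes. There, 4 members had an unadjusted p below 0.05 (9.78% of all genes): RGS13, PDE4C, GNAT2 and PLCB1, each higher in SF1 and SF5 than in HF5. A test of whether the fertility difference changed with session called 0 of 55 in limma (0% of all genes), with AKAP10, RGS13 and GNAT2 at an unadjusted p below 0.05 (4.18% of all genes).

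Between scan sessions, limma with fertility as a second term called 13 of 55 genes, 23.6%, against 20.1% of all genes. Of the 13, 8 were higher on the later dates (7.3% of all genes), among them PDE2A, ITPR3, RGS3, GNB1, ITPRIP, PLCG1 and GNB2. The other 5 were lower (12.8% of all genes): GNB4, GNAI1, PDE1A, PLCB1 and GNAT2. Centring on measured probes moved the median session difference of all genes to -0.23, against 0.01 as reported, and the calls over all genes to 171 higher and 876 lower, against 313 and 548. Under that centring 14 of the 55 were called (24.4% of all genes), 10 of them as before. The calls of ITPRIP, GNB2 and PLCG1 were lost, and AKAP5, PDE4B, PDE4C and PRKCH were gained. With no signal filter the calls of GNB2, ITPR3 and ITPRIP were lost, with normexp background correction that of PDE1A, and on the deposited value table that of GNB2. Steps other than scanning that changed with the scan date cannot be told apart from it here. The first session lay wholly on 1 slide, and the session fits carried no term for slide.

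**Figure D3:**
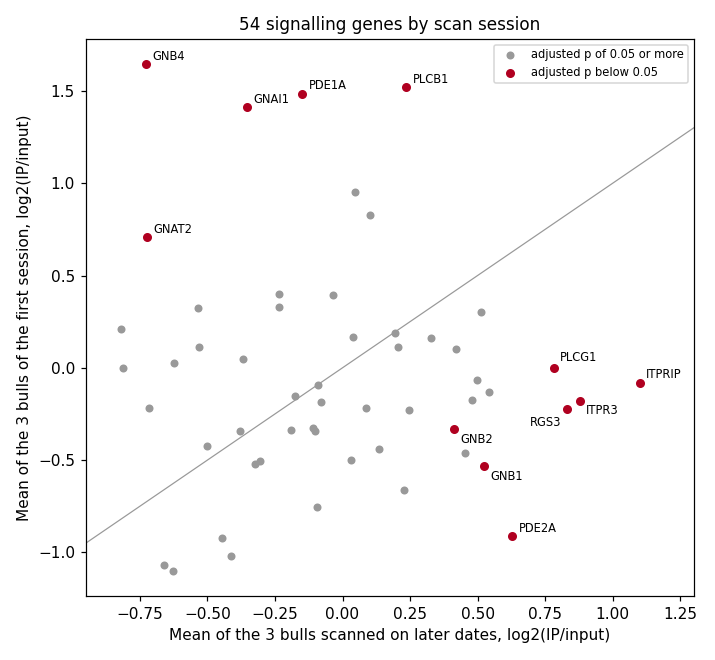
Mean level of 54 of the measured genes in the 3 bulls scanned on later dates (horizontal) against the 3 bulls of the first session (vertical), in log2(IP/input); the line marks equal levels and red points had an adjusted p below 0.05 in limma. GNB4, GNAI1, PDE1A, PLCB1 and GNAT2 lie above the line and PDE2A farthest below it.

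GNB4, a G-protein beta subunit, had the widest gap. Its 1 measured probe read -0.48, -0.77 and -0.93 in SF1, SF5 and HF5 on the later dates, against 2.17, 0.76 and 2.0 in SF4, HF2 and HF3 in the first session. The sessions did not overlap, as in 27 of 55 members and 48.6% of all genes, and the later minus first difference was -2.55 (SE 0.38, limma adjusted p = 0.0112). GNB1, another beta subunit, went the other way, at 0.48, 0.55 and 0.55 in SF1, SF5 and HF5, against -0.39, -0.66 and -0.54 in SF4, HF2 and HF3. Its difference was 1.03 (SE 0.22).

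GNAI1, an inhibitory alpha subunit, read 0.02, -0.36 and -0.72 in SF1, SF5 and HF5, against 1.36, 0.97 and 1.91 in SF4, HF2 and HF3. Its difference was -1.84 (SE 0.34). IP signal stood well above background at 2 of 3 spots per group for GNAI1, and likewise for GNAT2. PDE1A differed by -1.60 (SE 0.35), GNAT2, the transducin of cone photoreceptors, by -1.44 (SE 0.37) and PLCB1, a phospholipase C that Gq subunits activate, by -1.34 (SE 0.30). PDE4C, specific for cyclic AMP, differed by -0.79 (SE 0.26) without passing the test (limma adjusted p = 0.0729), and passed it when arrays were centred on measured probes.

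PDE2A read 0.37, 0.76 and 0.76 in SF1, SF5 and HF5, against -0.75, -1.14 and -0.85 in SF4, HF2 and HF3. Its difference was 1.53 (SE 0.26, limma adjusted p = 0.0129), with every later bull above every first-session bull. ITPR3 differed by 1.09 (SE 0.24) and RGS3 by 1.05 (SE 0.23). ITPRIP, which binds IP3 receptors, differed by 1.13 (SE 0.28), PLCG1, which tyrosine kinases activate, by 0.88 (SE 0.23) and GNB2 by 0.85 (SE 0.24). Leaving out HF5 or SF4 left 0 of all 4286 genes called by session in limma. Without SF1 it called 4 of 55 members (7.75% of all genes), without SF5 1 (4.57%), without HF3 16 (21.3%) and without HF2 19 (32% of all genes).

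The session difference went with the CpGs in a probe. Of the 13 measured member probes with no CpG, 12 were lower on the later dates, with a median difference of -0.65. Of the 35 with 4 or more CpGs, 8 were lower, with a median of 0.47. All named probes showed the same order, with 81.6% of those without a CpG lower and 25.2% of those with 4 or more. Over all 110686 measured probes, named or not, the gap was narrower: 54.4% of those without a CpG were lower, with a median of -0.07, and 27.5% of those with 4 or more, with a median of 0.33. At 1 CpG the median over all probes was 0.17, against -0.30 over named probes. GNB4, GNAI1, PDE1A, PLCB1 and GNAT2 all rest on probes with at most 1 CpG. The part of CpG number in the session difference was not tested.

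**Figure D4:**
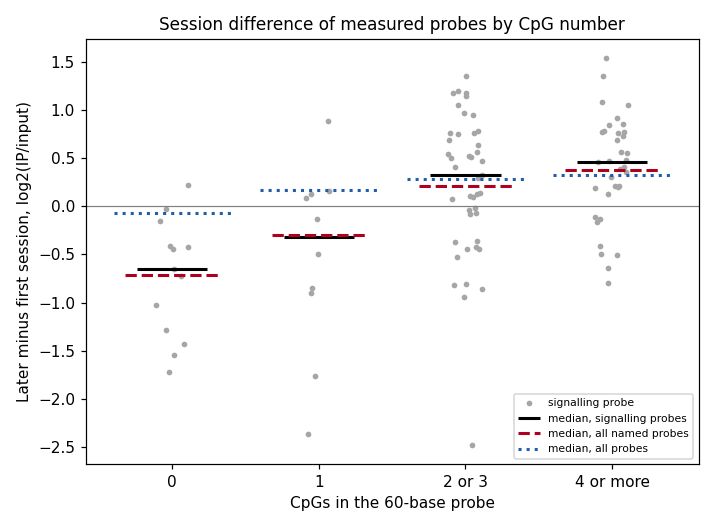
Later minus first session difference in log2(IP/input) of each of the 101 measured probes of these genes (grey), by number of CpGs in the probe, with medians over these probes (black), all named probes (red dashes) and all probes (blue dots). The black and red medians lie below 0 at 0 and 1 CpG and above 0 from 2 CpGs on, and the blue ones are above 0 from 1 CpG on.

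Averaged over all 6 bulls, 4 of 55 genes had a level below the array median in limma (7.82% of all genes). None lay above it by the adjusted test (0.933% of all genes), with 3 at an unadjusted p below 0.05 on that side (5.39% of all genes). In 6 of 55 genes all 6 bulls lay below the array median, against 18.8% of all genes. With no dye swap, a probe's own dye response is part of its level, and its share was not tested.

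GNAL was 1 of the 4, with a mean level of -0.86 ± 0.36 (SD, n = 6, limma adjusted p = 0.0228). PDE5A, which breaks down cyclic GMP, was at -0.52, -1.17 and -0.67 in SF1, SF4 and SF5, against -1.02, -1.01 and -0.79 in HF2, HF3 and HF5 (1 probe). Its mean was -0.86 ± 0.25 (SD, n = 6, limma adjusted p = 0.0183), and every bull lay below the array median.

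CAMK2N2 was at -0.28, -0.62 and -0.69 in SF1, SF4 and SF5, against -1.11, -1.03 and -0.36 in HF2, HF3 and HF5, a mean of -0.68 ± 0.34 (SD, n = 6, limma adjusted p = 0.0388). PRKCA, which calcium and diacylglycerol activate, was at -0.21, -0.69 and -0.62 in the subfertile bulls, against -0.90, -1.46 and -0.41 in the high-fertile bulls, a mean of -0.72 ± 0.44 (SD, n = 6, limma adjusted p = 0.0461). Leaving out any 1 bull ended the calls of PRKCA and CAMK2N2, and leaving out HF2, HF5 or SF5 ended those of all 4. With 1 bull left out, GNAL kept its call only when that bull was HF3. Centring on measured probes ended the calls of PRKCA and CAMK2N2. With unmeasured probes included, the level was -0.61 for GNAL (limma adjusted p = 0.0976), -0.42 for PRKCA (limma adjusted p = 0.164) and 0.13 for CAMK2N2, so that of the 4 only PDE5A passed.

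The highest levels among members with at least 2 measured probes did not pass the test. PDE1A was at 0.67 ± 0.97, ITPR3 at 0.35 ± 0.60, ADCY9 at 0.26 ± 0.33, AKAP3 at 0.24 ± 0.31, GNAO1 (an alpha subunit abundant in brain) at 0.21 ± 0.42 and RGS20 at 0.19 ± 0.11 (SD, n = 6 each). Both measured PDE1A probes hold no CpG. AKAP3 averaged 0.43 at a probe with no CpG and 0.06 at a probe with 5. At the low end, after GNAL and PRKCA, came PRKACB at -0.42 ± 0.42, CAMK1G (a calmodulin-dependent kinase) at -0.26 ± 0.39, PRKCSH at -0.23 ± 0.42 and ADCY8 (a cyclase stimulated by calcium) at -0.22 ± 0.44 (SD, n = 6 each). Of these 10 genes with values, the SD exceeded the size of the mean in all but RGS20 and PRKACB.

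Probes of 1 gene also differed from each other. In 7 of the 25 genes with at least 2 measured probes, the highest probe lay above the lowest in all 6 bulls, a description, since both were picked by their means. In ADCYAP1 the probe at chr24:36940048-36940107 read 0.88, 0.27 and 1.21 in SF1, SF4 and SF5, against 0.79, 0.83 and 0.71 in HF2, HF3 and HF5. Its probe 2690 bp away read -0.97, -0.32 and -0.37 in the subfertile bulls, against -1.22, -0.15 and -0.75 in the high-fertile bulls. The gap of 1.41 ± 0.53 (SD, n = 6) had the same direction in both groups and both sessions. ITPR1 had a gap of 1.16 ± 0.79 (SD, n = 6) between probes 326178 bp apart, and its gene mean near 0 averages over them.

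**Figure D5:**
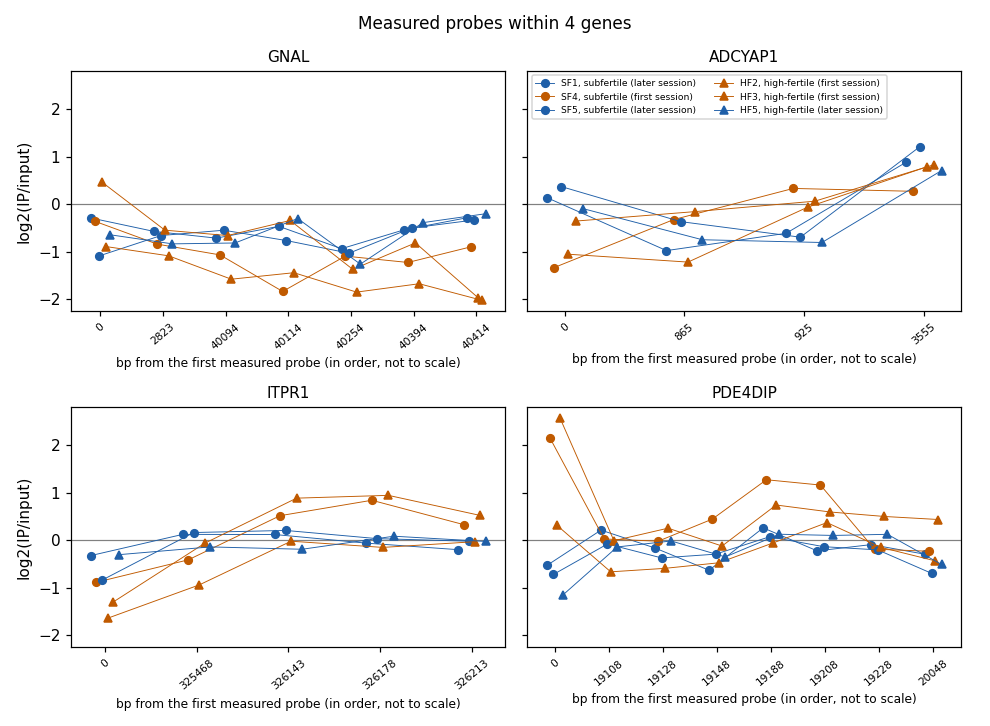
Level of each measured probe of GNAL, ADCYAP1, ITPR1 and PDE4DIP in each bull, in log2(IP/input), by distance from the gene's first measured probe (in order, not to scale); circles are subfertile and triangles high-fertile bulls, orange the first session and blue the later dates. GNAL stays below 0 except for HF2 at its first probe, ADCYAP1 is above 0 at its last probe in every bull, and the first PDE4DIP probe is highest in SF4 and HF3.

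Some members best known from sperm had no measured probe. PLCZ1, the sperm phospholipase that starts calcium waves in the egg, had 3 probes, with input above background at 2 of 9 spots in subfertile bulls and 5 of 9 in high-fertile bulls. Without the filter, PLCZ1 read 0.38, 0.90 and 0.03 in SF1, SF4 and SF5, against 1.34, 1.66 and -0.37 in HF2, HF3 and HF5, on signals largely at background. PLCD4, needed for the acrosome reaction in mouse sperm, read -0.35, 1.59 and 0.90 in the subfertile bulls, against 2.07, 1.64 and -0.68 in the high-fertile bulls without the filter, with input above background at 0 of 3 subfertile spots and 1 of 3 high-fertile spots. PDE11A read -1.24, 1.52 and 0.89 in SF1, SF4 and SF5, against 2.06, 1.80 and -1.18 in HF2, HF3 and HF5 without it, with input above background at 1 of 6 subfertile spots and 2 of 6 high-fertile spots. In all 3 genes SF4, HF2 and HF3, the bulls of the first session, were the highest, as in 50.5% of all genes read without the filter. Another 18 listed names, among them ADCY10 (the bicarbonate-sensitive cyclase of sperm), AKAP4, PRKACA and RYR3, were not analysed here because no named probe carried them.

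Genes of the same pathways outside the name rule came from a list of 105, of which 52 were on the array and 29 were measured. limma called 0 of the 29 for fertility, with 0 at an unadjusted p below 0.05, and 17 were positive (median 0.07), against 52.2% of all genes. CATSPER3, a subunit of the sperm calcium channel, was at -0.17, -0.36 and 0.14 in SF1, SF4 and SF5, against -1.19, -0.35 and -0.33 in HF2, HF3 and HF5. The groups overlapped, with a difference of 0.50 (SE 0.35). Differences were 0.55 (SE 0.36) for GRK5 and 0.47 (SE 0.48) for ADRBK1, kinases that silence receptors, on 2 probes each. PPP1CC, a phosphatase with a sperm form, differed by 0.50 (SE 0.40, 1 probe). On the other side, the calcium channel ORAI3 was at -0.76 (SE 0.44) and the guanylyl cyclase GUCY2C at -0.68 (SE 0.70), on 1 probe each. The calcium channel CACNA1E was at -0.27 (SE 0.44, 2 probes) and PRKG1, a kinase that cyclic GMP activates, at -0.18 (SE 0.29, 5 probes). Between sessions limma called 6 of the 29 (20.1% of all genes), 4 of them higher on the later dates (7.3% of all genes).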

How the data were processed

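The deposited scanner tables give each spot's intensity in both dyes; per the file headers, Agilent Feature Extraction 10.7.3.1 made them, under a CGH protocol for SF1 and a ChIP protocol for the other 5 arrays. Their deposited log10 ratio is Cy5 over Cy3, which the labels give as IP over input. A deposited value table on the log2 scale served as an alternative. Gene names stand in 3 of the 6 files and were joined to the others by probe ID and sequence.

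Here log2(IP/input) of the processed signals was centred on each array's median over 177440 non-control probes, and a gene is the mean of its measured probes. Linear models came from limma 3.58.1 (R 4.3.3, R package data.table, version 1.17.8), with moderated 2-sided tests and p-values adjusted over all features by Benjamini-Hochberg at a threshold of 0.05. Plots used pandas 2.3.3 and matplotlib 3.10.9 in Python 3.11.15. Later minus first differences carry fertility as a second term, so they can differ from a difference of means. Fits were also run on simulated data. There, a shift of 1 log2 between fertility groups was not called at any gene or probe it was added to. At single probes, a shift of 2 log2 was not called at any either. Calls of 0 therefore do not exclude differences of these sizes. Depth has no count here: the number of arrays limits precision. The p-values set a mean or a difference against the spread that the model leaves between these 6 samples. The level test takes the 6 bulls as independent, although levels correlated within a session.

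Members and lists were chosen with earlier results of these data known. The naming rule took members with 3 or more measured probes, members known from sperm, the highest and lowest 6 levels among genes with at least 2 measured probes, up to 6 per direction by session, up to 4 pathway genes outside the rule per direction, probes whose groups do not overlap, and genes that match by spelling but are of other families. Other genes were named after their values were seen. One of the measured genes is counted but not reported here. Alternatives covered the signal filter, background correction, centring, the deposited table, session and slide as blocks, each session alone, and leaving out each bull.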

Additional observations from a re-analysis of the deposited data

How the results depend on the processing

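The labels match no subfertile bull to a high-fertile bull, so no paired analysis was run. They do not say that the number 5 in SF5 and HF5 marks a pair. Without any 1 bull, fertility calls stayed at 0 for probes, genes and gene regions, members included, and for the pathway genes outside the rule. The later dates alone gave 34 probes, 95 genes, 4 gene regions and 2 outside pathway genes, and no member. Session calls were 0 to 1372 over all genes and 0 to 19 among members without 1 bull, 2793 (35.2%) and 27 with no signal filter, and 1420 (33.1%) and 21 with normexp background correction. Level calls were 0 to 204 over all genes and 0 to 2 among members without 1 bull, 774 and 7 with normexp, and 135 and 2 when centred on measured probes (52 higher and 83 lower, against 40 and 335 as reported). With no filter, 2 members were called by level, and calls over all genes split into 373 higher and 53 lower.

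The fertility difference changed sign in 13 of the 55 genes with session as a block, in 12 in the first session alone and in 25 on the later dates alone. With session as a block it was 0.04 for GNAT2, 0.55 for GNB4, 0.24 for GNAI1, 0.16 for PLCB1 and -0.24 for ITPR2, each of the other sign as reported. Among the genes of the naming rule and those beyond 0.5 log2, sign changes, none past the threshold, were these. With IP signal above background on all arrays, GNAI2 was at -0.083, ITPR1 at -0.070 and GRK5 at -0.019. By the median over probes, GNAI2 was at -0.11 and RGS20 at 0.10. With no filter, ITPR1 was at -0.031, PDE4DIP at 0.030 and ITPRIP at -0.21. With normexp, PDE4DIP was at 0.040, RGS20 at 0.0053 and PRKG1 at 0.043. In the first session alone, ADCYAP1 was at -0.12, PDE4DIP at 0.37, AKAP3 at -0.14, ADRBK1 at -0.043 and GUCY2C at 0.38. On the later dates alone, ADCY9 was at -0.20, PRKCE at 0.011, ITPR3 at -0.33, GRK5 at -0.032, CACNA1E at 0.10, PRKG1 at 0.066, AKAP10 at 0.066, PDE1A at 0.26 and PDE2A at -0.20. With session as a block, PDE4DIP was at 0.18, ITPR3 at -0.11 and CACNA1E at 0.014. Chosen after seeing the data, adding neighbouring probes within 500 bp gave 0.021 for PDE4DIP, 0.12 for RGS20 and -0.11 for AKAP3, and no filter with session as a block gave 0.28 for PDE4DIP and -0.0078 for ITPRIP. Without 1 bull, differences ranged from -0.072 to 0.36 for GNAL, -0.068 to 0.31 for ITPR1, -0.029 to 0.22 for ADCYAP1, -0.30 to 0.25 for PDE4DIP, -0.080 to 0.32 for AKAP3, -0.59 to 0.11 for CACNA1E and -0.30 to 0.017 for PRKG1.

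With no filter the session difference was -0.61 for ITPRIP, 0.61 for ITPR3 (limma adjusted p = 0.171) and 0.21 for GNB2 (limma adjusted p = 0.594), and levels were 0.26 for PRKACB, 0.23 for CAMK1G, 0.45 for ADCY8 and 0.13 for CAMK2N2. The PDE1A session difference was -0.46 with normexp (limma adjusted p = 0.0528), and that of GNB2 0.78 on the deposited table (limma adjusted p = 0.0627). With normexp, levels were -0.024 for ADCY9 and -0.036 for GNAO1. The causes were not tested. With 3 bulls a group and most genes on 1 or 2 probes, the number of arrays limits what these comparisons can show.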
